A study of Mus musculus with 80 samples.

Results

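Slc25a25 and Coq10b are nuclear genes for mitochondrial proteins, and their transcripts were examined beside those of 6 relatives, Slc25a24, Coq10a, Coq3, Coq5, Coq7 and Coq9, in mouse tissues after injection of the α-emitter 211At. Members were found as every probe on the array that carries 1 of the 8 gene symbols. This gave 14 probes for 7 of the 8 genes, out of 25697 probes for 16593 genes, and Coq10a had no probe. Slc25a25 and Coq10b were picked on measured values, namely their liver signal in each exposed group against control, and for Slc25a25 also the kidney cortex signal. Those contrasts of the pair are therefore described without a test. The relatives were picked for what their proteins do.

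Adult female BALB/c nude mice, which lack a thymus, received 211At into the tail vein. Groups were killed after 1.7 kBq at 1 h, 105 kBq at 1 h, 1.7 kBq at 6 h, 7.5 kBq at 6 h and 1.7 kBq at 7 days, and mock-treated control mice received phosphate buffered saline and were killed at 24 h. The 1.7 kBq and control groups held n = 3 mice and the 105 and 7.5 kBq groups n = 2, with kidney cortex, kidney medulla, liver, lung and spleen from each group, which gives 80 arrays. Signals are log2 of the quantile-normalized array intensity, and changes with their SEs come from limma, a linear model that shares its estimate of the spread across probes. Since control mice were killed at another time after injection than every exposed group, exposure and time of killing cannot be told apart in any contrast against control. In these whole-tissue samples, fewer cells of a type and less RNA per cell cannot be told apart either.

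Slc25a25 encodes a carrier of the inner mitochondrial membrane that exchanges ATP-Mg for phosphate and is switched on by calcium, and so sets the pool of adenine nucleotides inside the organelle. Slc25a24 encodes a close relative with the same transport activity. Coenzyme Q is the lipid that takes electrons from complex I, complex II and other dehydrogenases to complex III. Coq3 and Coq5 encode methyltransferases of its synthesis, Coq7 a hydroxylase, and Coq9 a lipid-binding protein that Coq7 needs. Coq10b and Coq10a encode proteins that bind coenzyme Q and are related to yeast Coq10, which in yeast is needed for respiration with coenzyme Q.

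The promoter windows of the pair are shown because both transcripts were higher in exposed liver, and the window of Coq9 for comparison, a relative that was not called there. RefSeq sequences of build GRCm38.p6, from 250 bases before to 50 bases after each annotated start, were searched on both strands for the cAMP response element (CRE, TGACGTCA), its core (CRE core, TGACG), the E-box CACGTG, the D-box TTANGTAA, the glucocorticoid element and the heat shock element. E-boxes and D-boxes are known as clock elements, and CREs as sites of CREB. Capitals mark the letters of a match. The windows are Coq10b at chr1:55052520-55052819 on the plus strand, the third of 3 annotated Slc25a25 starts at chr2:32424017-32424316 on the minus strand, and Coq9 at chr8:94838163-94838462 on the plus strand.
Coq10b: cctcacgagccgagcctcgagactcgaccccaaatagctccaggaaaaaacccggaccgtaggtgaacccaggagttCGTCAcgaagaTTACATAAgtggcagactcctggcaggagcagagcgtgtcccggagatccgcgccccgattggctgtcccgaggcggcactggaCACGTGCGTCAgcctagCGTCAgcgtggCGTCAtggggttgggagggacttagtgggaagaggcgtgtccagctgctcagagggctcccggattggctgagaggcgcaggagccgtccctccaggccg
Slc25a25: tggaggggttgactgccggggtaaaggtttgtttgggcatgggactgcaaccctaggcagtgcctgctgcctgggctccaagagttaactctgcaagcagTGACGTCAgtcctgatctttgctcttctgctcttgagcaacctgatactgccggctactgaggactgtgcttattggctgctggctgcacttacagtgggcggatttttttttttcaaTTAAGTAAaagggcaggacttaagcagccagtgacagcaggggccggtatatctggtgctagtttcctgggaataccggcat
Coq9: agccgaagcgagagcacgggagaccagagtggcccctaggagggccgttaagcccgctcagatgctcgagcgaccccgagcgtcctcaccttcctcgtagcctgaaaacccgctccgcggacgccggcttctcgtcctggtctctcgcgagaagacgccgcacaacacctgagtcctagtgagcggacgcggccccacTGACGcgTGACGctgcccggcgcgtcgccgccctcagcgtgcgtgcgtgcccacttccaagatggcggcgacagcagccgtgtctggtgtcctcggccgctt

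The Coq10b window held 4 CRE cores on the reverse strand (as CGTCA), 1 E-box directly before 1 of them, and 1 D-box, also on the reverse strand. The third Slc25a25 window held a full CRE 150 bases before the start, with 2 CRE cores that lie inside it, 1 on each strand, and a D-box 32 bases before the start. The other 2 Slc25a25 starts, Slc25a24 and Coq3 held none of the motifs searched. Coq9 held 2 CRE cores, Coq7 1, and the second Coq10a start 1, and none of the windows of these genes held a glucocorticoid or heat shock element in these letters. The comparison set was 32851 promoter windows of the same length, with 1 chromosome left out. Of these, 1.79% held a CRE, 20.8% a CRE core, 7.15% an E-box, 2.32% a D-box, 0.472% a glucocorticoid element and 0.603% a heat shock element. A D-box together with a CRE core stood in 0.341% of them, a pairing chosen after the matches had been seen. Coq5 was not in the promoter table. These matches are letters in a window, not shown sites of binding.

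**Figure D1:**
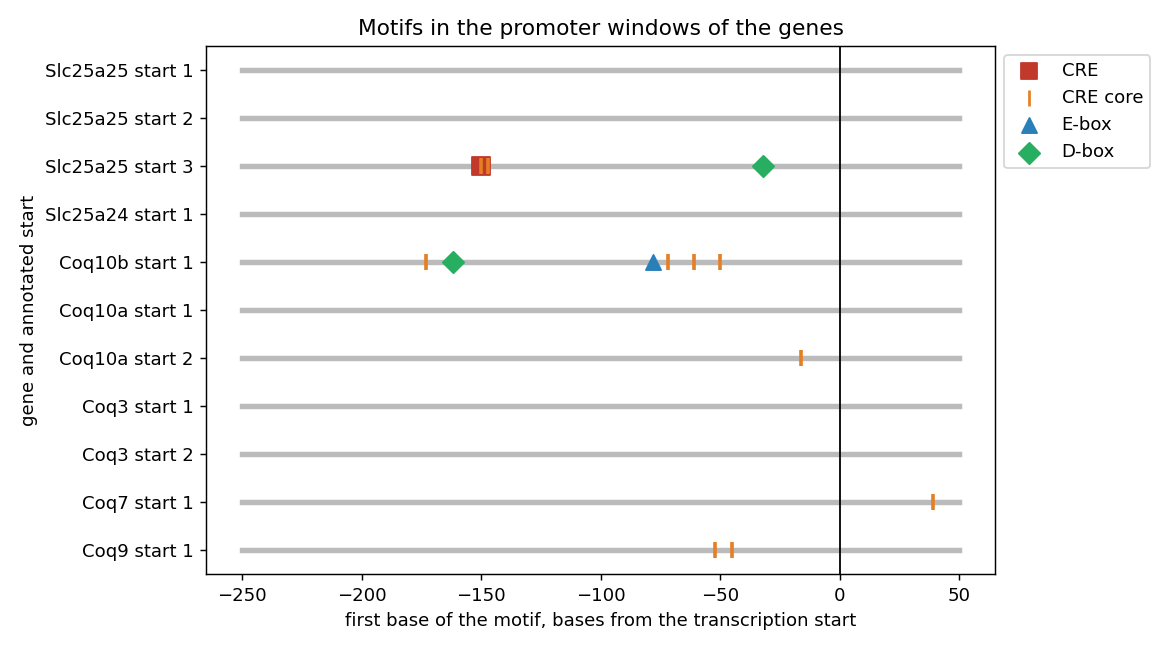
Motif matches in the promoter windows of the genes, with the first base of each match in bases from the annotated start on the x axis and 1 row per annotated start. Coq10b and the third Slc25a25 start are the rows with a D-box, and the full CRE stands at -150 in Slc25a25.

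All 14 probes passed the filter on dim probes in all 5 tissues, which kept a probe in a tissue where 2 or more of its 16 arrays exceeded a background cutoff of 6.88 (log2). How far above it they lay differed. Slc25a25 (probe ILMN_1216597) and Coq10b probes ILMN_3104462 and ILMN_3031099 were above it on all 80 arrays, whereas the third Coq10b probe, ILMN_2639498, ranged from 6.58 to 7.18 and so lay near background throughout. The 2 brighter Coq10b probes are annotated to 1 transcript record and the dim probe to another record of the gene. Coq5, Coq7 and Coq9 each had a probe above the cutoff on 80 arrays, and Coq3 was dim, with a highest signal of 7.81. Of the 3 Slc25a24 probes, ILMN_1213947 exceeded it on 80 arrays, ILMN_2841710 on 77 and ILMN_2709504 on 21.

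Facts of the whole series that touch these genes are as follows. Every tissue carried its own markers, with a mean hepatocyte marker signal of 11.89 to 13.10 (log2) in liver. However, 4 arrays stood apart by markers of another tissue. Hepatocyte markers averaged 13.02 on kidney medulla 1.7 kBq 7 days replicate 1, against 8.21 on the next medulla array, with proximal tubule markers at 6.77, below the cutoff. On kidney cortex 7.5 kBq 6 h replicate 1 they averaged 11.53, against 8.13 on the next. Proximal tubule markers averaged 9.80 on lung 7.5 kBq 6 h replicate 1, against 6.78 on the next, and exocrine pancreas markers 13.19 on spleen 1.7 kBq 7 days replicate 1, against 7.39. For some contrasts below, changes without such an array are given beside those with all arrays. Shares of all probes called, counts of tests and ranges are over all arrays unless stated.

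In the liver both genes stood far above control in every exposed group, which is what they were picked for. Slc25a25 had log2 signals of 11.84, 11.18 and 11.39 at 1 h after 1.7 kBq, against 10.01, 9.80 and 9.41 in control. It had 10.91 and 11.46 at 1 h after 105 kBq, 10.92, 11.35 and 11.11 at 6 h after 1.7 kBq, 11.36 and 11.39 at 6 h after 7.5 kBq, and 10.98, 11.16 and 11.04 at 7 days. Every exposed array lay above every control array. The log2 differences from control were 1.73 (SE 0.18, 3.31-fold) and 1.44 (SE 0.20) at 1 h, 1.39 (SE 0.18) and 1.63 (SE 0.20) at 6 h, lower activity before higher, and 1.32 (SE 0.18, 2.49-fold) at 7 days. The 7 day livers were thus near the 6 h livers for this carrier gene.

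Coq10b showed a larger difference that was smaller at 7 days. Probe ILMN_3104462 had 10.61, 10.61 and 10.24 at 1 h after 1.7 kBq, against 8.06, 8.16 and 7.81 in control. It had 10.46 and 10.99 at 1 h after 105 kBq, 10.29, 10.78 and 10.60 at 6 h after 1.7 kBq, 10.86 and 10.73 at 6 h after 7.5 kBq, and 9.55, 9.54 and 9.61 at 7 days. No exposed array overlapped the control arrays. The log2 differences were 2.48 (SE 0.15, 5.57-fold) at 1 h after 1.7 kBq, 2.72 (SE 0.17) after 105 kBq, 2.55 (SE 0.15) at 6 h after 1.7 kBq, 2.79 (SE 0.17, 6.92-fold) after 7.5 kBq and 1.56 (SE 0.15, 2.94-fold) at 7 days. Probe ILMN_3031099 gave 2.28, 2.40, 2.32, 2.77 and 1.56 in the same order, with SEs of 0.25 to 0.28 and control arrays at 7.20, 7.69 and 7.62. The near-background probe differed by at most 0.29. Of all probes tested in the liver, 1.24% were called at 1 h after 1.7 kBq, 1.04% after 105 kBq, 0.628% at 6 h after 1.7 kBq, 1.19% after 7.5 kBq and 0.0389% at 7 days, where a call means a Benjamini-Hochberg adjusted p under 0.01 in limma and a change of at least 1.5-fold. Nothing is read from these shares for the pair, since the liver contrasts chose it.

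**Figure D2:**
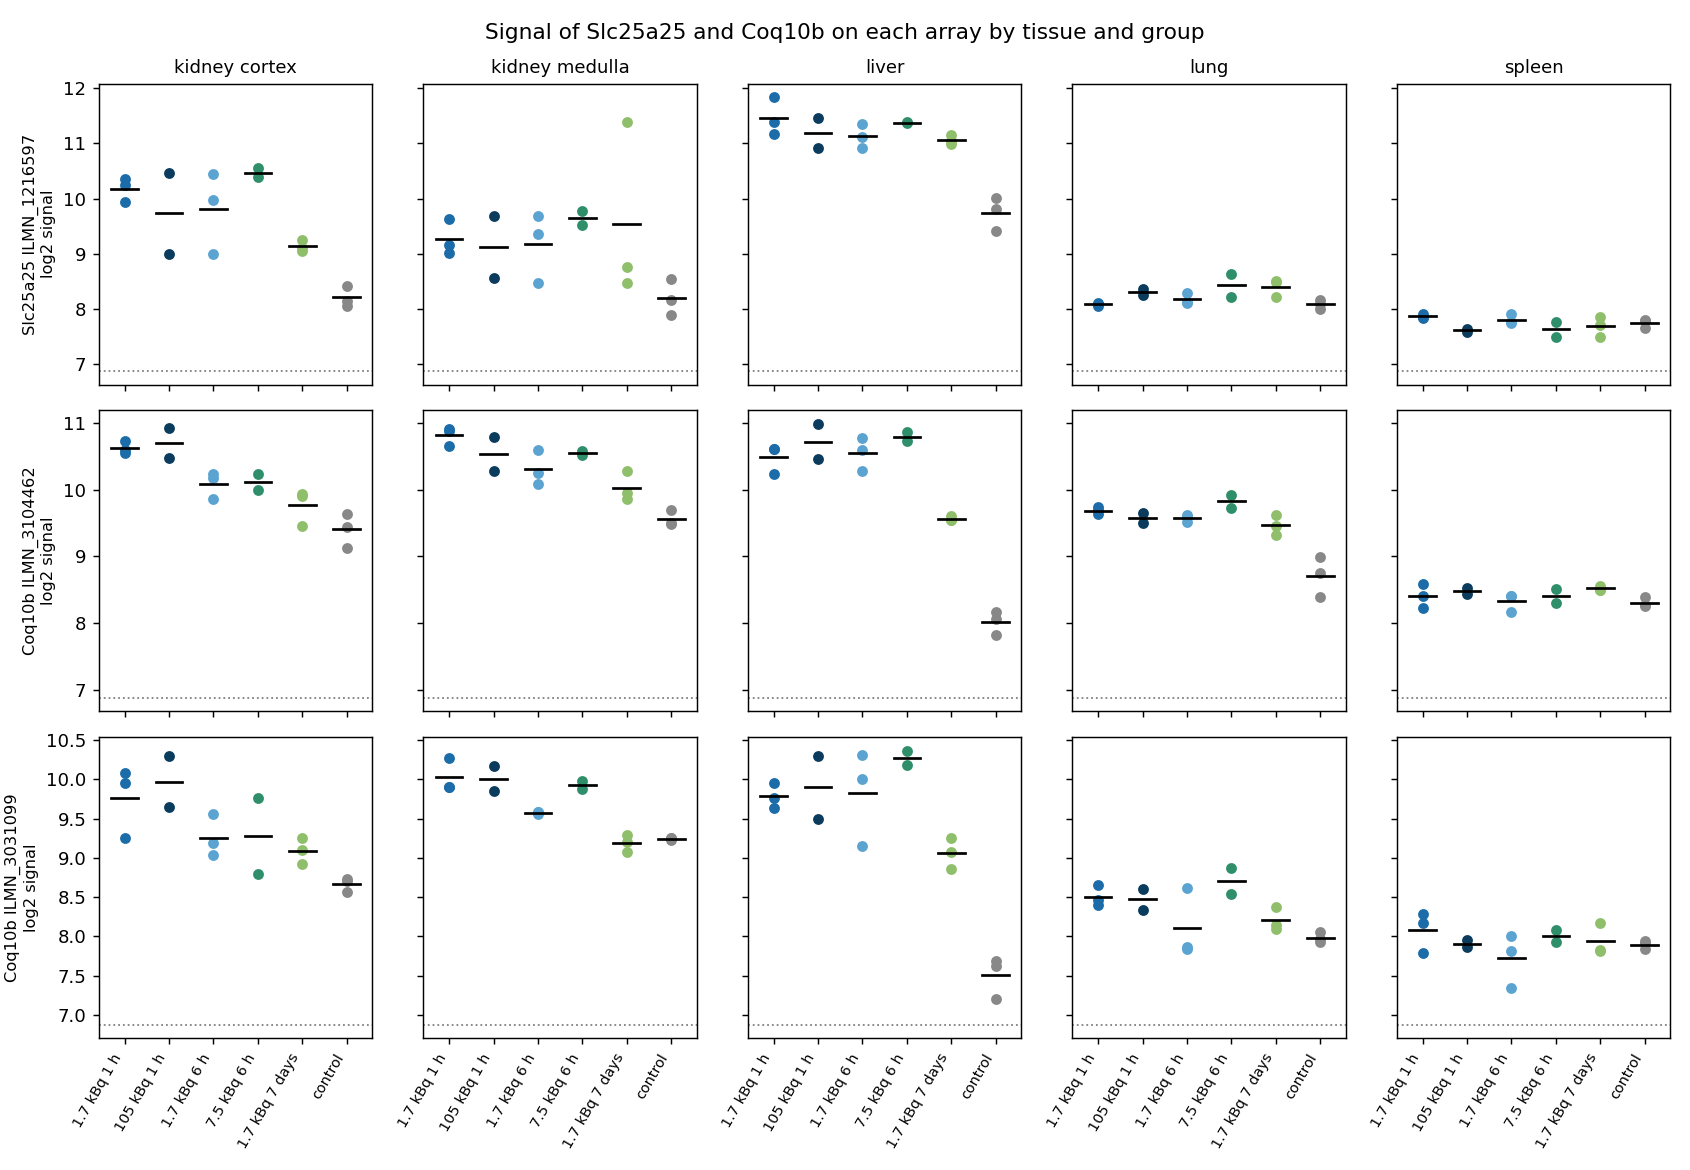
Log2 signal of Slc25a25 and of both brighter Coq10b probes on each array (points) with the group mean (line), by tissue and group, and the background cutoff of 6.88 as a dotted line. Exposed liver arrays lie above the control arrays for all 3 probes, the spleen arrays lie near their controls, and 1 medulla array at 7 days (11.39) stands apart for Slc25a25.

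The relatives in the liver were tested, since their values did not choose them. At most 1.24% of all probes were called in any of these liver contrasts, and the highest share was lower in each other tissue. The missing calls of the relatives are near these shares, so they are not read as a trait of the relatives or as a contrast with the pair. None of the 10 probes of Slc25a24, Coq3, Coq5, Coq7 and Coq9 was called in any of the 5 exposed groups by limma, with 5 of 50 tests at an unadjusted p under 0.05, all 5 of them lower after exposure. Over the 5 contrasts against control, all probes at such a p numbered 1623 to 3260 of 17987 in liver and 874 to 2093 of 16390 in kidney cortex. They numbered 669 to 1784 of 16676 in medulla, 449 to 1760 of 15924 in lung and 951 to 1370 of 16470 in spleen. Among the relatives in liver, Slc25a24 came nearest to a call. Its probe ILMN_1213947 had 7.68, 7.48 and 7.38 at 6 h after 1.7 kBq, against 7.95, 7.83 and 8.22 in control, a log2 change of -0.49 (SE 0.11, limma adjusted p 0.030) with groups that did not overlap. Over the 5 exposures the change of this probe ran between -0.49 and -0.23, opposite in sign to Slc25a25 and without a call. Slc25a24 probe ILMN_2841710 was also lower than control in each exposed group. The dim ILMN_2709504 was not, with a mean of 6.97 at 1 h after 1.7 kBq against 6.93 in control. Coq9 gave 9.43, 9.64 and 9.49 at 1 h after 1.7 kBq, against 9.39, 9.77 and 9.73 in control, and Coq7 8.12, 8.09 and 7.88, against 7.92, 7.98 and 8.01. Both overlapped their controls. Coq5 (ILMN_1257300) gave 10.11, 10.18 and 10.21, against 10.11, 10.28 and 10.31, and overlapped as well. Coq3 (ILMN_2973089) gave 7.58, 7.58 and 7.17, against 7.03, 7.81 and 7.29, a wide spread in both groups.

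**Figure D3:**
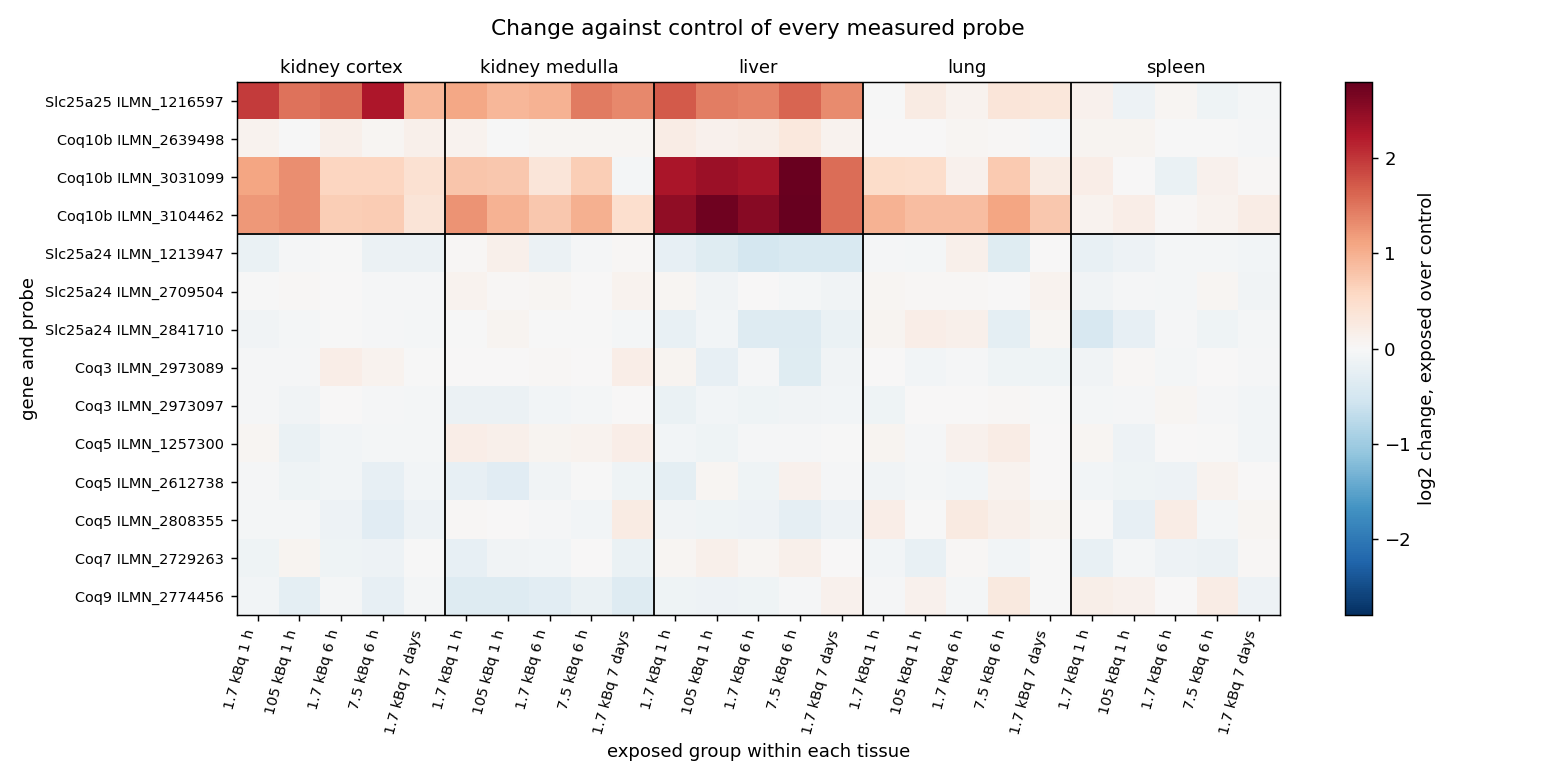
Log2 change, exposed over control, of every measured probe (rows) in each exposed group of each tissue (columns), red for higher and blue for lower. Slc25a25 and 2 of the 3 Coq10b probes carry the color in liver and kidney, and Coq10b ILMN_3104462 carries it in lung as well. The 10 probes of the relatives below the line stay between -0.49 and 0.28 with all arrays.

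In kidney cortex Slc25a25 was higher in all 5 exposed groups, which again is a description. It had 10.35, 10.24 and 9.94 at 1 h after 1.7 kBq, against 8.42, 8.15 and 8.06 in control. It had 8.998 and 10.47 at 1 h after 105 kBq, 8.99, 10.45 and 9.98 at 6 h after 1.7 kBq, 10.55 and 10.39 at 6 h after 7.5 kBq, and 9.05, 9.25 and 9.10 at 7 days. No exposed array fell to the control arrays, but the 105 kBq and 1.7 kBq 6 h groups each held 1 array near 9. The log2 differences were 1.97 (SE 0.35, 3.91-fold) and 1.52 (SE 0.39) at 1 h, 1.60 (SE 0.35) and 2.26 (SE 0.39, 4.80-fold) at 6 h, lower activity before higher, and 0.92 (SE 0.35) at 7 days. The 7.5 kBq value was 2.19 (SE 0.51) without the array that carries hepatocyte markers.

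The kidney cortex values of Coq10b had not been used to choose it and were tested. However, all tissues came from the same groups of mice, and results of the other tissues were known. The tests of Coq10b in cortex, medulla, lung and spleen are thus not independent of its choice in liver. Probe ILMN_3104462 had 10.60, 10.73 and 10.55 at 1 h after 1.7 kBq and 10.92 and 10.47 after 105 kBq, against 9.64, 9.44 and 9.13 in control. It had 9.86, 10.23 and 10.18 at 6 h after 1.7 kBq, 9.998 and 10.24 after 7.5 kBq, and 9.90, 9.94 and 9.46 at 7 days. The groups did not overlap with control at 1 h and 6 h and did at 7 days. Coq10b rose at 1 h, by 1.22 (SE 0.16, limma adjusted p 0.0027) after 1.7 kBq and by 1.29 (SE 0.18, 2.45-fold, adjusted p 0.0055) after 105 kBq. It stood 0.69 above control at 6 h after 1.7 kBq (SE 0.16, adjusted p 0.15), 0.71 above after 7.5 kBq (SE 0.18, adjusted p 0.14) and 0.36 above at 7 days (SE 0.16, adjusted p 0.92), without a call. The 7.5 kBq value was 0.84 (SE 0.23) without the array that carries hepatocyte markers. Of all probes, 0.238% and 0.201% were called at 1 h, 0.0488% and 0.11% at 6 h and 0 at 7 days.

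Probe ILMN_3031099 stood above control in kidney cortex without a call, by 1.10 (SE 0.26, adjusted p 0.078) after 1.7 kBq and 1.30 (SE 0.29, adjusted p 0.053) after 105 kBq at 1 h. The call of ILMN_3104462 after 1.7 kBq was lost without 1.7 kBq 1 h replicate 1 (adjusted p 0.017), 1.7 kBq 1 h replicate 2 (0.015), control replicate 2 (0.016) or control replicate 3 (0.014). The call after 105 kBq was lost without 105 kBq 1 h replicate 1 (0.053) or 2 (0.023), 1.7 kBq 1 h replicate 2 (0.0103), 1.7 kBq 6 h replicate 3 (0.011) or control replicates 2 or 3 (0.025 each), and also with no filter on dim probes (0.0101). Without the array that carries hepatocyte markers both calls were made (adjusted p 0.0038 and 0.0079). None of the relatives was called in kidney cortex, with 4 of 50 tests at an unadjusted p under 0.05, and their changes lay between -0.31 and 0.18. Without the array that carries hepatocyte markers there were again no calls, with 2 of 50 tests at an unadjusted p under 0.05. Coq7 at 7.5 kBq was then at -0.42 (SE 0.15, limma adjusted p 0.72), outside that range and below all controls, against -0.14 with all arrays.

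In kidney medulla Slc25a25 was called in no exposed group, and whether Coq10b was called depended on single arrays. Among these is the 7 day array with hepatocyte markers in the range of liver and proximal tubule markers below the cutoff. Slc25a25 had 9.62, 9.17 and 9.01 at 1 h after 1.7 kBq, 8.56 and 9.68 after 105 kBq, 8.47, 9.69 and 9.35 at 6 h after 1.7 kBq, and 9.77 and 9.53 after 7.5 kBq, against 8.54, 8.16 and 7.89 in control. At 7 days it had 11.39, 8.77 and 8.47, the first of these on the array with hepatocyte markers, which has the level of an exposed liver. Changes were 1.07 (SE 0.63, limma adjusted p 0.59), 0.92, 0.98, 1.45 and 1.35 in the order of the groups above, with no call. Without that array they were 1.07 (SE 0.32, adjusted p 0.075), 0.92 (adjusted p 0.22), 0.98 (0.27), 1.45 (0.13) and 0.42 (0.85), still with no call. Of the 5 tests, 0 had an unadjusted p under 0.05 with all arrays and 4 without that array. Over the 5 contrasts without it, 1129 to 3449 of all 16263 probes had such a p.

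Coq10b in kidney medulla had exposed arrays above all controls at 1 h and 6 h on both brighter probes, with 0 of 15 limma tests called and 9 at an unadjusted p under 0.05. ILMN_3104462 had 10.91, 10.66 and 10.89 at 1 h after 1.7 kBq and 10.79 and 10.29 after 105 kBq, against 9.70, 9.48 and 9.50 in control. Its values were 10.09, 10.60 and 10.24 at 6 h after 1.7 kBq, 10.58 and 10.53 after 7.5 kBq and 10.28, 9.96 and 9.87 at 7 days. At 7 days too its arrays lay above the controls. At 1 h after 1.7 kBq the change was 1.26 (SE 0.16, adjusted p 0.0108), just short of a call, and 0.024% of all probes were called there and 0 in the other 4 groups. Without the array with hepatocyte markers, that change was called (1.26, SE 0.14, adjusted p 0.00093), and so were those of ILMN_3031099 at 1 h after 1.7 kBq (0.78, SE 0.10, adjusted p 0.0020) and after 105 kBq (0.76, SE 0.11, adjusted p 0.0069).

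Without that array, 0.43% and 0.277% of all probes were called in medulla at 1 h, 0.0799% and 0.111% at 6 h and 0 at 7 days. ILMN_3104462 was then at 0.98 (adjusted p 0.0105) after 105 kBq, 0.75 (0.046) and 0.99 (0.017) at 6 h and 0.35 (0.71) at 7 days, none of them called. ILMN_3104462 at 1 h after 1.7 kBq was also called without 105 kBq 1 h replicate 1 or 2 (adjusted p 0.0098 each). None of the relatives was called in medulla with or without the array, with 2 of 50 tests at an unadjusted p under 0.05 and changes between -0.36 and 0.23 over all arrays, and 5 of 50 without it. At 7 days Coq9 was at -0.36 with all arrays and -0.19 without it, and Coq7 at -0.18 and -0.02. Coq9 had 9.46, 9.83 and 9.75 at 1 h after 1.7 kBq, against 9.87, 10.22 and 10.03 in control, a change of -0.36 without overlap and without a call (limma adjusted p 0.50).

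In the lung Coq10b was called in 1 exposed group and Slc25a25 in none. Slc25a25 had 8.09, 8.11 and 8.05 at 1 h after 1.7 kBq, against 7.998, 8.17 and 8.10 in control, a change of -0.01 with a 95% confidence interval of -0.24 to 0.23. Its other lung changes were 0.22, 0.09, 0.34 and 0.31, with limma adjusted p-values over the 5 groups of 0.46 to 1.00 and 2 of 5 at an unadjusted p under 0.05. The 7.5 kBq change was 0.54 (SE 0.12, adjusted p 0.43) without the array that carries kidney markers. Coq10b probe ILMN_3104462 had 9.73, 9.63 and 9.69 at 1 h after 1.7 kBq, 9.65 and 9.50 after 105 kBq, 9.51, 9.60 and 9.63 at 6 h after 1.7 kBq, 9.92 and 9.73 after 7.5 kBq and 9.32, 9.46 and 9.63 at 7 days, against 8.76, 8.38 and 8.99 in control. Every exposed lung array lay above every control array, and the controls were more spread than the exposed arrays.

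The Coq10b change in lung was 0.98 (SE 0.13, 1.97-fold, limma adjusted p 0.0079, called) at 1 h after 1.7 kBq, where 0.0754% of all probes were called. It was 0.86 (SE 0.14, adjusted p 0.025) after 105 kBq, 0.87 (SE 0.13, 0.064) at 6 h after 1.7 kBq, 1.11 (SE 0.14, 0.0103) after 7.5 kBq and 0.76 (SE 0.13, 1.00) at 7 days, with 0.0628%, 0, 0.0188% and 0 of all probes called. The call was lost when any single lung array was left out, other than 1.7 kBq 7 days replicate 3, with adjusted p-values up to 0.037. The change without an array stayed between 0.81 and 1.12. At 7.5 kBq the change was 1.02 without the array that carries kidney markers, and 1.21 without 7.5 kBq 6 h replicate 2, which leaves that array alone in the group. With both 7.5 kBq arrays it was called without control replicate 3 (adjusted p 0.0075). ILMN_3031099 differed from control by 0.52, 0.49, 0.13, 0.72 and 0.22 in the same order, without a call. None of the relatives was called in lung, with 2 of 50 tests at an unadjusted p under 0.05 and changes between -0.33 and 0.28. Both ends of that range were at 7.5 kBq and moved without the array that carries kidney markers, Coq9 to 0.09 (SE 0.18, in place of 0.28) and Slc25a24 (ILMN_1213947) to -0.49 (SE 0.16, limma adjusted p 0.98, in place of -0.33).

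In the spleen neither gene was called. Slc25a25 had 7.91, 7.86 and 7.84 at 1 h after 1.7 kBq, against 7.80, 7.77 and 7.66 in control, and its 5 changes lay between -0.13 and 0.12. The exposed arrays stood just above the controls at 1 h after 1.7 kBq and just below them after 105 kBq (7.64 and 7.58). ILMN_3104462 had 8.22, 8.40 and 8.59 at 1 h after 1.7 kBq, against 8.39, 8.27 and 8.25, and its changes were 0.10, 0.18, 0.03, 0.11 and 0.22 in the order of the groups. Without the array that carries pancreas markers, the 7 day change was 0.04 for Slc25a25 in place of -0.06, and 0.23 for Coq10b. No probe of any of the genes was called in spleen by limma, with 0 of 50 tests of the relatives, whose changes lay between -0.45 and 0.21, 0 of 5 of Slc25a25 and 1 of 15 of Coq10b at an unadjusted p under 0.05. Of all probes, 0.00607% were called at 1 h after 1.7 kBq and 0 in the other 4 groups. Without the array that carries pancreas markers, 8 of 16357 probes (0.0489%) were called at 1 h after 105 kBq, none of them a probe of these genes.

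Whether the 1 h change after 1.7 kBq differed between tissues was tested outside the liver, in 1 limma fit without the 4 arrays that stand apart. This test was added after seeing the data, so it is no independent support for a difference. The change of Coq10b (ILMN_3104462) was larger in kidney cortex than in spleen by 1.12 (SE 0.21, adjusted p 0.0023) and larger in kidney medulla than in spleen by 1.16 (SE 0.21, adjusted p 0.0016), where 0.202% and 0.243% of all probes were called. Lung minus spleen was 0.88 (SE 0.21, adjusted p 0.027), not called, with 0.264% of all probes called. Cortex minus lung was 0.24 (adjusted p 0.83), medulla minus lung 0.28 (0.84) and cortex minus medulla -0.04 (1.00), where 0.188%, 0.111% and 0 of all probes were called. On the other bright Coq10b probe, ILMN_3031099, cortex minus spleen was 0.91 (adjusted p 0.25) and medulla minus spleen 0.60 (adjusted p 0.40), neither called. For Slc25a25, medulla minus lung was 1.08 (SE 0.37, adjusted p 0.27) and medulla minus spleen 0.95 (SE 0.37, adjusted p 0.24). A difference of Slc25a25 between these tissues was thus not shown. Tissues of 1 mouse are not independent in this fit, and the labels do not say which samples share a mouse.

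The injected activity made no difference that passed the test. The higher activity was set against 1.7 kBq at the same time, which gives 105 kBq at 1 h and 7.5 kBq at 6 h. Over the 14 probes and 5 tissues, 0 of 140 tests were called by limma and 8 had an unadjusted p under 0.05. Over all probes, such p-values ran from 178 of 16676 (medulla, 7.5 against 1.7 kBq) to 1738 of 17987 (liver, 105 against 1.7 kBq). The 140 tests include the pair in liver, and Slc25a25 in kidney cortex, on exposed arrays that chose the pair. For those the values below are a description, and nothing is concluded from the missing calls. Of all probes, 0.00556% were called in liver between 105 and 1.7 kBq and 0 in each of the other 9 contrasts. In liver Slc25a25 differed by -0.28 (95% confidence interval -0.72 to 0.15) between 105 and 1.7 kBq and by 0.25 (-0.19 to 0.68) between 7.5 and 1.7 kBq. Coq10b (ILMN_3104462) differed by 0.24 in both, with intervals of -0.12 to 0.59 and -0.11 to 0.60. In kidney cortex Slc25a25 differed by -0.44 (-1.29 to 0.40) and 0.67 (-0.18 to 1.51), intervals that hold changes of more than 1.5-fold. The second of these was 0.59 (-0.51 to 1.69) without the array that carries hepatocyte markers.

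Among control mice 27 of 100 tests of the relatives between pairs of tissues were called by limma, 27%, beside 2.1% to 33.1% of all probes over the 10 pairs. Over all 14 probes there were 44 calls in 140 tests, 31.4%. That count includes 9 calls in 19 tests of the pair on control arrays of the contrasts that chose it, from which nothing is read. The liver controls of both leading genes, and the kidney cortex controls of Slc25a25, belong to the contrasts that chose the pair, so their differences from other tissues are given as a description without a test. Slc25a25 was highest in liver, whose controls are given above, and liver stood above lung by 1.65 (SE 0.17) and above spleen by 2.00 (SE 0.17), while cortex stood at -1.53 and medulla at -1.55 relative to liver. Of all probes, 31.1%, 33.1%, 20.6% and 21.8% were called in these pairs. Cortex, medulla, lung and spleen followed in this order, cortex 0.46 (SE 0.17) above spleen. The pairs not touched by the choice were not called, with medulla over lung at 0.11 (limma adjusted p 0.66), medulla over spleen at 0.45 (0.035) and lung over spleen at 0.34 (0.12), the second of them at an unadjusted p under 0.05.

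Coq10b had another order in control tissues. Medulla and cortex were highest on ILMN_3104462, lung and spleen followed, and liver was lowest. Cortex exceeded lung by 0.70 and spleen by 1.10, and medulla exceeded them by 0.85 and 1.26, all called (limma adjusted p 0.0020 or lower). Lung minus spleen was 0.41 (adjusted p 0.047, not called). Cortex minus medulla was -0.16 (SE 0.15, adjusted p 0.84) on this probe but -0.58 (SE 0.10, adjusted p 0.0047) on ILMN_3031099, which misses a call only by its size. As a description, liver stood at -0.70 relative to lung and -0.29 relative to spleen, and cortex and medulla stood 1.40 and 1.55 above liver. In the exposed livers Coq10b thus had signals of 10.24 to 10.99 at 1 h and 6 h, above the 9.13 to 9.70 of the control kidneys on the same probe.

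Coq9 was the relative with the widest range over control tissues. It had 10.02, 10.10 and 10.11 in cortex, 9.87, 10.22 and 10.03 in medulla, 9.39, 9.77 and 9.73 in liver, 7.72, 7.63 and 7.70 in lung and 7.69, 7.89 and 7.79 in spleen. Cortex exceeded lung by 2.39 and spleen by 2.29, medulla exceeded them by 2.36 and 2.25, and liver by 1.95 and 1.84, all called, while lung and spleen did not differ beyond their spread (-0.10, adjusted p 0.48). Of all probes, 25.6% were called between cortex and lung, 31.5% between cortex and spleen, 25.6% between medulla and lung and 32% between medulla and spleen. Coq7 was higher in cortex and medulla than in lung and spleen, by 0.87 to 1.04, all called. Coq5 (ILMN_1257300) was lower in lung, which cortex exceeded by 0.93, medulla by 0.73 and liver by 1.00, all called.

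Slc25a24 ran the other way. Its probe ILMN_1213947 stood at -0.77 in cortex relative to lung and to spleen and at -0.67 in medulla relative to each of them, all 4 called. Coq3 had 0 calls in 20 limma tests, 3 of them with an unadjusted p under 0.05. Of all probes, 2.1% were called between cortex and medulla, where 0 of the 14 probes were called and 2 had an unadjusted p under 0.05, and 22.6% between lung and spleen, where 0 were called and 4 had an unadjusted p under 0.05. Of all 18069 probes, 2560 had such a p between cortex and medulla and 8858 between lung and spleen.

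**Figure D4:**
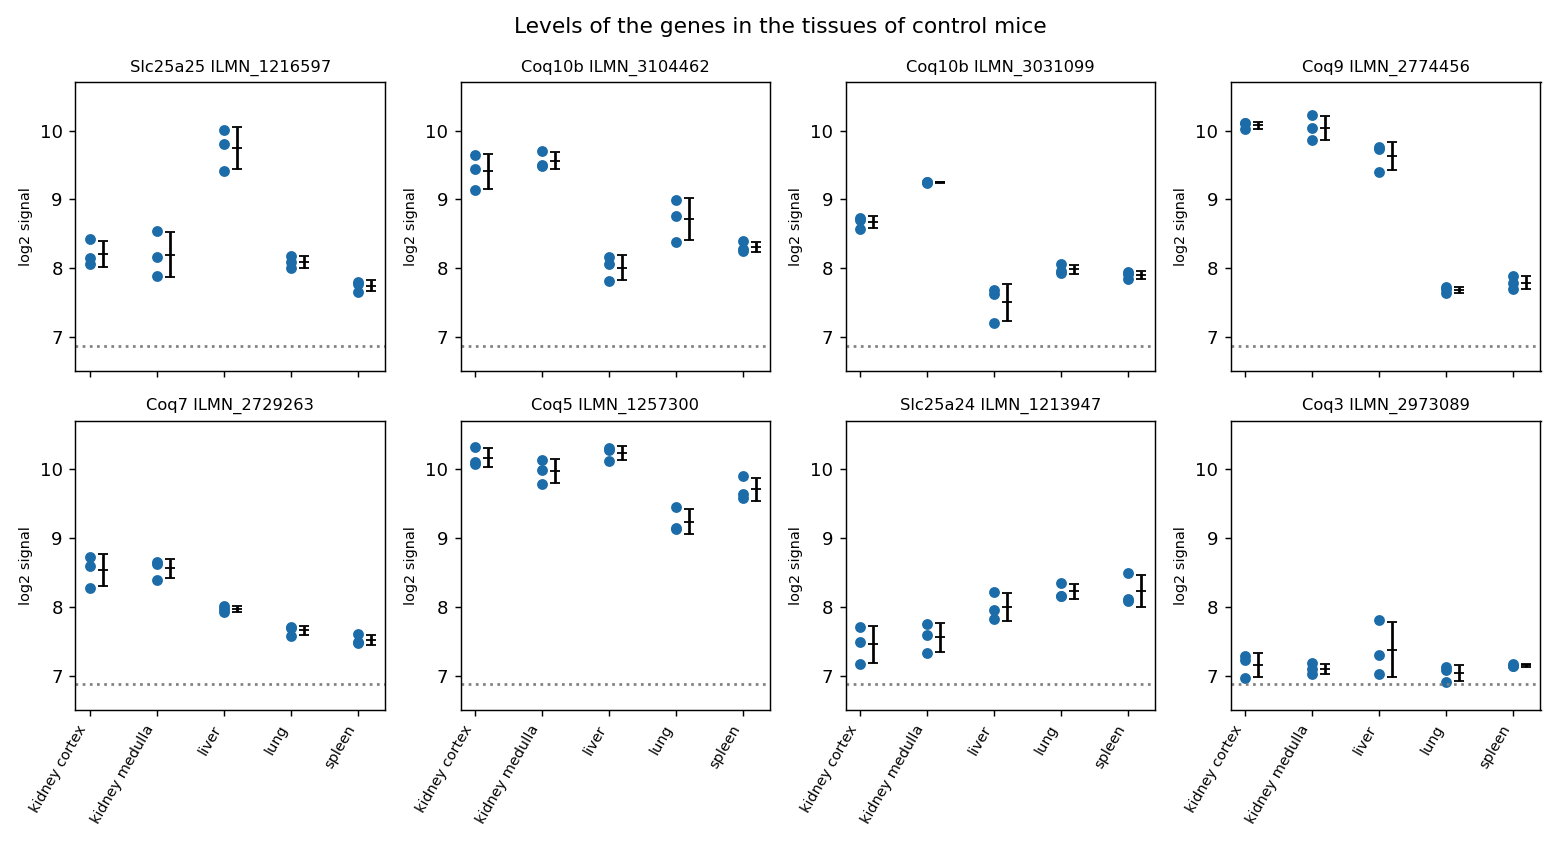
Log2 signal of 8 probes in the 3 control arrays of each tissue (points), with mean and SD beside them and the background cutoff as a dotted line. Slc25a25 is highest in liver, Coq10b in kidney and lowest in liver, and Coq9 lies near 10 in kidney and liver and under 8 in lung and spleen.

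Genes with a pattern like the pair were ranked by Pearson's r over the 80 arrays after each probe was centred on its mean in each tissue, among 9140 genes with a probe kept in all tissues. The arrays share exposures, tissues and possibly mice, so r is a description. The liver values of Slc25a25 and Coq10b chose the pair, so a high r between them over liver arrays follows from that choice and supports nothing. The choice also favors other genes that were higher in the same exposed arrays, so the rankings are no support either. The 5 genes nearest to Slc25a25 were Noct (0.82), nocturnin, whose level follows the circadian clock, Plk3 (0.76), a stress-linked kinase, Angptl4 (0.75), an inhibitor of lipoprotein lipase, and G6pc (0.75) and Pck1 (0.73), enzymes of gluconeogenesis. Those nearest to Coq10b (ILMN_3104462) were Usp2 (0.83), a ubiquitin protease, Pim3 (0.81), a kinase, Per2 (0.80) and Per1 (0.79), repressors of the circadian clock, and Hexim1 (0.79), an inhibitor of transcription elongation. Coq10b was at rank 37 for Slc25a25 with r = 0.62, and r between them was 0.91 over the liver arrays and 0.52 outside the liver. Without both kidney arrays that carry hepatocyte markers it was 0.70, and the 5 genes of each ranking had r of 0.70 to 0.79 for Slc25a25 and 0.79 to 0.86 for Coq10b. Outside the liver, r with Slc25a25 was 0.85 for Noct, 0.73 for Plk3, 0.71 for Angptl4, 0.70 for G6pc and 0.75 for Pck1. There r with Coq10b was 0.66 for Usp2, 0.79 for Pim3, 0.80 for Per2, 0.60 for Hexim1 and 0.75 for Per1. The kidney cortex arrays that also chose Slc25a25 are among these.

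Other genes of the coenzyme Q pathway were counted by lists. Their counts at an unadjusted p under 0.05 are to be read beside the numbers of all probes at such a p, given above by tissue. Of 9 other synthesis genes, among them Coq2 and Coq4, 5 were measured, with 0 calls in 185 limma tests over the 5 tissues and 22 at an unadjusted p under 0.05. Of 7 other carriers of adenine nucleotides or phosphate 5 were on the array and 3 passed the filter, Slc25a3, Slc25a5 and Slc25a42, with 0 calls in 100 tests and 17 at an unadjusted p under 0.05. Of 13 genes of dehydrogenases that pass electrons to coenzyme Q outside complex I, 12 were measured and 1 was called, with 3 calls and 65 unadjusted p under 0.05 in 580 tests. That gene was Aifm2, whose protein reduces coenzyme Q in membranes outside the mitochondrion. It rose in liver on 1 of its 4 kept probes, ILMN_1259418, by 0.69 (SE 0.11, limma adjusted p 0.0020) at 1 h after 105 kBq, by 0.62 (SE 0.09, adjusted p 0.0020) at 6 h after 1.7 kBq and by 0.79 (SE 0.11, adjusted p 0.00071) at 6 h after 7.5 kBq. The other 3 Aifm2 probes differed by -0.17 to 0.44 over the 5 liver contrasts without a call. The shares of all probes called in these liver contrasts were 1.04%, 0.628% and 1.19%. At 1 h after 1.7 kBq in liver the list medians were 0.08 for synthesis genes, -0.01 for dehydrogenases and 0.10 for carriers, beside 0.00 over all probes.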

How the data were processed

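Total RNA of 80 samples was hybridized to Illumina MouseRef-8 arrays. The deposited values are intensities that the authors quantile-normalized with Illumina software and BASE, with 1 column per sample. Sorted columns differed by at most 1.05. A table before normalization was not used, because its 160 columns of signals and detection p-values could not be tied to samples. Gene symbols came from the platform annotation, brought up to date by gene number.

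Log2 intensities were fitted with limma 3.58.1 in R 4.3.3, separately in each tissue over 6 groups, and the Benjamini-Hochberg method adjusted p-values over all kept probes of a comparison. The thresholds were an adjusted p under 0.01 and at least 1.5-fold. The cutoff for dim probes was the mode of all intensities (106.2) plus 2.33 SD of the values under it (4.79), which is 117.4, or 6.88 on the log2 scale. The number of arrays limits the precision.

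Members, lists and tests were chosen with earlier results of these data known. All members were named with every probe, other genes of the pathway lists when a probe was called, and 5 genes by likeness for each of Slc25a25 and Coq10b. The liver had first been taken as the only tissue behind the choice of Slc25a25, but the study also lists it for kidney cortex, so its cortex contrasts against control are given without a test. The test of tissue differences and the fits without the lung and spleen arrays that carry another tissue were added after seeing the data. Whether replicate numbers pair the samples was not settled, and the main fits use no pairing. Simulated data were used to test the fits. Alternatives changed the filter, background correction, scaling, variance model, block, samples and thresholds.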

Additional observations from a re-analysis of the deposited data

Results flagged for a closer look

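The 1 h change of Coq10b (ILMN_3104462) after 1.7 kBq differed between tissues in the limma fit over 76 arrays, a test added after seeing the data. It was larger in kidney cortex than in spleen by 1.12 on the log2 scale (SE 0.21, adjusted p 0.0023), and larger in kidney medulla than in spleen by 1.16 (SE 0.21, adjusted p 0.0016). With all 80 arrays the adjusted p-values were 0.0071 and 0.0026. The second probe, ILMN_3031099, gave 0.91 (adjusted p 0.25) and 0.60 (adjusted p 0.40) for the same differences and did not pass. No group holds more than 3 samples, so single arrays were not tested as outliers.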

How the results depend on the processing

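No alternative turned the direction of a called change of Coq10b. Without the array that carries pancreas markers, the uncalled 7 day change of Slc25a25 in spleen went from -0.06 to 0.04. With all settings below, the relatives had 0 calls in kidney cortex, kidney medulla, lung and spleen, the pair had 0 in spleen and no activity contrast was called. In the liver 1 relative was called at an adjusted p under 0.05 with no fold threshold. Calls of Coq10b in kidney cortex, 2 as reported, numbered 1 with no filter on dim probes and 4 in 1 fit over all 80 arrays, and 0 to 2 when leaving out 1 array. Calls of Slc25a25 and Coq10b in kidney medulla, 0 as reported, numbered 1 with cyclic loess, 3 in 1 fit over all 80 arrays and 3 at the looser threshold, and 0 to 3 without 1 array. In lung, 1 as reported, they numbered 0 with no filter and with cyclic loess, 2 with the stricter filter, normexp or an intensity trend with robust variance, 4 in 1 fit over all 80 arrays and 3 at the looser threshold, and 0 to 1 without 1 array. The lung call added with the stricter filter, normexp, the variance setting or the replicate block was Coq10b (ILMN_3104462) at 6 h after 7.5 kBq. That group holds the array that carries kidney markers. Control tissues gave 69 calls at the looser threshold in place of 44, and 41 to 49 without 1 array. These counts include tests of the pair on control arrays of the contrasts that chose it. The median liver change of Coq10b (ILMN_3104462), 2.55, was 2.78 with normexp and 2.45 to 2.68 without 1 array. Without 1 array the median change of ILMN_3031099 in liver was 2.17 to 2.41, and that of Slc25a25 1.28 to 1.63 in liver and 1.52 to 1.97 in kidney cortex. The cause of these moves was not tested.

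The correlations did not settle whether replicate numbers pair the samples. Same-number values lay between -0.33 and 0.64, with a negative lowest value in every tissue. Their mean was 0.22 in lung, 0.13 in spleen and 0.16 between control tissues, against -0.11, -0.06 and -0.08 for other numbers. In kidney cortex, medulla and liver it was -0.05, 0.05 and 0.04, against 0.03, -0.03 and -0.02. With the replicate number as a block, calls numbered 1 in kidney cortex, where the call of Coq10b after 105 kBq was lost (adjusted p 0.021), 2 in lung and 47 between control tissues, and the block changed no other count of calls. A slide block and a filter on detection p-values were not run. Dim probes, such as those of Coq3, lie close to background, which limits what change they can show, and groups of 2 mice give wide intervals.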
